A study of Rattus norvegicus with 18 samples.

Results

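This report describes 49 genes of the transforming growth factor beta (TGF-beta) and bone morphogenetic protein (BMP) pathway in rat endothelial cells. They were chosen by name from the 11018 genes with a symbol on the array: every Tgfb, Bmp, Acvr, Smad, Inha or Inhb, numbered Gdf, Ltbp and Id gene, and Grem1, with Bmp2 left out. Eng, also named, was absent under that symbol. The rule is one of gene names and sets no threshold on values. Lung microvascular endothelial cells (LMEC_0h, 5 arrays) and liver sinusoidal endothelial cells (LSEC_0h, 5 arrays) were taken fresh, after enzymatic digestion, a density gradient and magnetic sorting. Sinusoidal cells plated on collagen were taken after 2 h (LSEC_2h, 4 arrays) and after 42 h (LSEC_42h, 4 arrays). All cells came from rats, and the labels give no genotype, treatment, strain, age or sex for any group. Whether each array had its own animal is not stated, and the p-values here rest only on how far arrays of 1 label lie apart, a spread that may be technical.

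Ligands of this family are dimers that bring together type II and type I receptor kinases at the cell surface. The type I receptor then phosphorylates receptor SMADs, SMAD2 and SMAD3 mostly downstream of TGF-beta and activins and SMAD1, SMAD5 and SMAD9 mostly downstream of BMPs, which enter the nucleus with SMAD4. Endothelium is known for a BMP branch of its own, in which the type I receptor ALK1 (gene Acvrl1) binds circulating BMP9 and BMP10 and induces the ID genes and the inhibitory SMADs SMAD6 and SMAD7. TGF-beta itself is secreted in a latent form, bound to latent TGF-beta binding proteins in the matrix.

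Values are the deposited log2 expression per gene, 1 probe set each. Differences are fitted log2 differences from 1 limma model over all 18 arrays and all 11018 genes. A gene is said to be called, to have risen or to have fallen where its Benjamini-Hochberg adjusted p over all genes was under 0.05. The 24 probe sets for bacterial control RNAs averaged 5.66 to 5.74 in the fresh arrays, with single probe sets reaching a group mean of 6.26, which is used here as the background level. A fold against a group at or below it is a lower bound. Counts of calls, for the members and for all genes alike, include genes at background in both groups compared. In the cultured arrays the same controls averaged 7.62 to 8.37, so culture and labelling cannot be told apart in comparisons of cultured with fresh cells, while fresh lung against fresh liver, and 42 h against 2 h, compare arrays that are alike in these controls. As a measure of RNA integrity, the gap between the Actb probe sets near the 3′ end and near the 5′ end was also larger in culture, at 1.63 to 1.69 in LSEC_2h and 1.81 to 1.89 in LSEC_42h against 0.91 to 1.28 in LSEC_0h. The 8 sinusoidal markers averaged 7.17 to 7.45 in LMEC_0h and 11.10 to 11.40 in LSEC_0h, and 11 markers of lung and continuous endothelium 11.15 to 11.58 in LMEC_0h and 7.58 to 7.68 in LSEC_0h. The mean of 13 pan-endothelial markers lay between 10.66 and 10.99 in LMEC_0h and between 10.94 and 11.07 in LSEC_0h, and between 9.83 and 10.71 in culture. In culture endothelial markers fell too. Of the 8 sinusoidal markers 7 fell at 2 h and 6 at 42 h and none rose, with list means of 9.48 to 10.01 in LSEC_2h and 9.11 to 9.52 in LSEC_42h. Of the 13 pan-endothelial markers 10 fell and 2 rose at 2 h, and 9 fell and 2 rose at 42 h. Their part in the members' changes in culture was not tested. In these bulk samples fewer cells of a type and less RNA per cell cannot be told apart.

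Of the 49 genes, 42 lay above background in at least 1 group and 31 in all 4. Bmp8a, Gdf6, Gdf9 and Inha did so only in LSEC_2h. The level was set on fresh arrays, and at 2 h genes at or below the median level read higher throughout the table (median log2 difference 0.21). The 27 genes given array by array below were called in at least 1 comparison with groups that did not overlap and a higher group mean above the median of all genes (7.16). By that rule 16 members qualified in LMEC_0h over LSEC_0h, 18 at 2 h over fresh, 14 at 42 h over fresh and 11 at 42 h over 2 h, where 26.6%, 39.9%, 34.4% and 39.2% of all genes did. Values per array run in array order, LMEC_0h arrays 18 to 22, LSEC_0h arrays 13 to 17, LSEC_2h arrays 4 to 7, and LSEC_42h arrays 1, 2, 3 and 12.

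The organ comparison asked how lung capillary endothelium differs from liver sinusoidal endothelium. The receptors Acvrl1 and Bmpr2, the ligand Bmp4 and the latent TGF-beta binding protein Ltbp1 were higher in LMEC_0h by 7.72-fold, 5.11-fold, at least 11.4-fold and 6.76-fold. The coreceptor Tgfbr3 and the target gene Id3 were lower in LMEC_0h by 2.75-fold and 2.57-fold. In all, 22 of the 49 genes were higher in LMEC_0h and 10 lower, where 19.8% and 27.7% of all genes were. Among these, Bmp3 (higher) and Gdf9, Grem1, Inhbc and Smad3 (lower) were at background in both groups. At least 2-fold apart were 10 members higher (20.4%) and 2 lower (4.08%), against 5.9% and 3.98% of all genes. The median log2 difference of the members was 0.07, against -0.04 over all genes. Markers of other cells differed between these groups as well. Of 16 stellate and mesenchymal cell markers, 15 were higher in LMEC_0h and 1 lower, with a list mean of 8.27 to 9.39 in LMEC_0h and 6.29 to 6.67 in LSEC_0h, where 7 of them (Dcn, Lum, Tagln, Rgs5, Lox, Postn and Mfap4) were at background. Lung epithelial markers were higher in 11 of 12, at 9.59 to 11.15 against 6.24 to 6.43, with Sftpc, Sftpa1, Sftpb, Scgb1a1, Krt19, Epcam, Tspan8 and Lamp3 at background in LSEC_0h. Of 18 hepatocyte markers, 16 were lower in LMEC_0h, at 6.53 to 6.62 against 8.03 to 9.50, with Alb and Ttr among 10 genes at background in LMEC_0h. Macrophage markers were lower in 6 of 9 and higher in 2, at 7.16 to 8.47 against 7.98 to 10.62, with none at background. Lymphocyte markers (T, NK and B cells) showed 6 of 12 genes higher in LMEC_0h and 1 lower, at 6.54 to 7.55 against 6.46 to 6.63, with array 22 highest and Klrd1 at background in both groups. The part of these cells in the organ differences was not tested.

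The comparison of cells cultured for 2 h with fresh cells followed the pathway through the first hours on collagen. Id3 fell 6.85-fold, Tgfb1 3.45-fold, Tgfbr3 2.91-fold, Smad6 and Acvrl1 2.32-fold each, and Ltbp4 2-fold. Inhbb, a subunit of activin B, rose 4.38-fold, the only member that rose at least 2-fold. Of the 49 genes 26 rose and 11 fell, where 41.4% of all genes rose and 32.7% fell. Bmp3, Bmp15, Inhbc and Smad9, all called higher, were at background in both groups. Dim genes made up 15 of these 26. The 24 members at or below the median level had a median log2 difference of 0.19, and 3172 of 5351 dim genes of the whole table rose, with a median of 0.21. Of the 25 members above the median level, 11 rose and 9 fell (median -0.04). Of 5667 such genes in the whole table, 1386 rose and 2954 fell (median -0.3). With arrays quantile-normalized, 15 members rose and 13 fell. The median log2 difference of all members was 0.17, against 0.08 over all genes. At least 2-fold apart were 1 member higher (2.04%) and 6 lower (12.2%), against 5.69% and 7.26% of all genes. At the same time macrophage markers fell in 6 of 9 genes, with a list mean of 7.19 to 7.73 at 2 h against 7.98 to 10.62 in LSEC_0h and Aif1 at background at 2 h. T, NK and B cell markers rose in 6 of 12 and fell in 1, at 7.39 to 7.87 against 6.46 to 6.63, with Ms4a1 at background in both groups and Cd3d, Cd3e, Cd3g and Klrd1 in LSEC_0h. Hepatocyte markers fell in 3 of 18, at 6.89 to 9.97 against 8.03 to 9.50, with none at background. Mesenchymal markers rose in 12 of 16, at 6.79 to 7.62 against 6.29 to 6.67, with Lox and Postn at background in both groups. Their part in the members' changes was not tested.

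**Figure D1:**
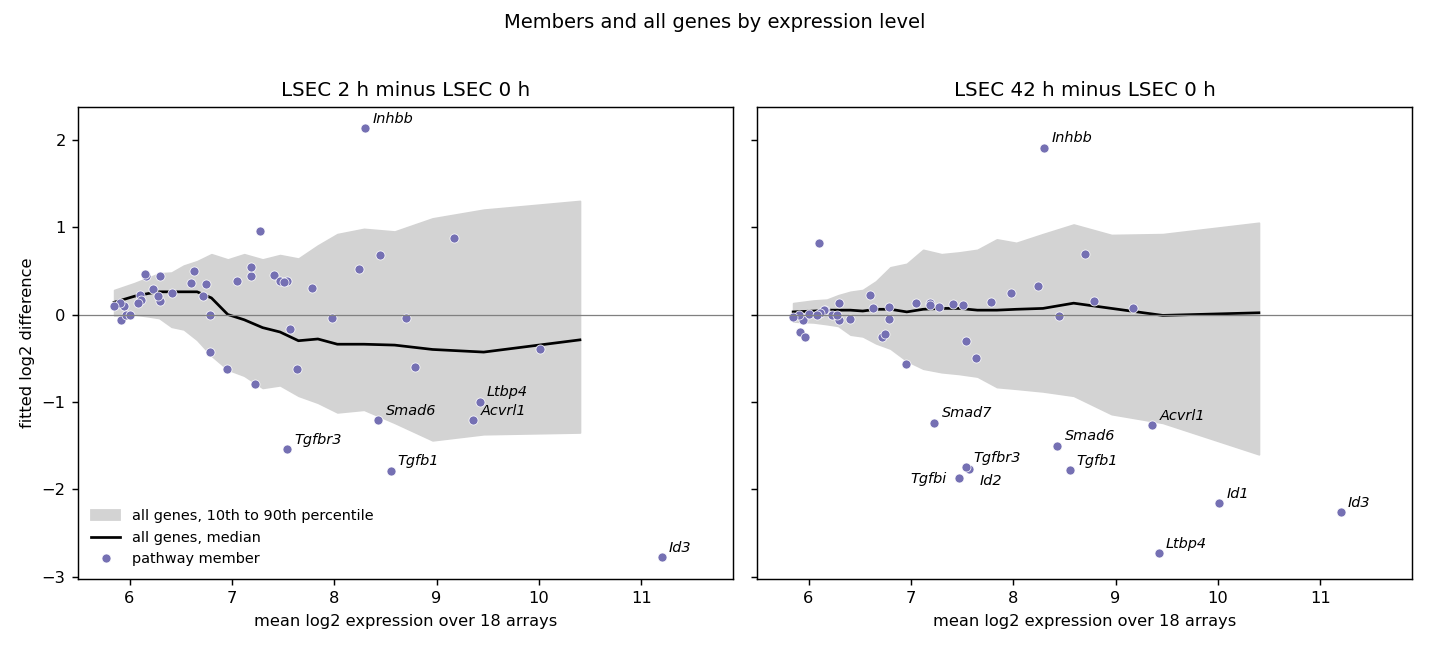
Fitted log2 difference (vertical axis) of the 49 pathway genes (points) and of all 11018 genes in 20 bins of equal size (grey band, 10th to 90th percentile; black line, median) against mean log2 expression over 18 arrays, for 2 h and 42 h of culture minus fresh sinusoidal cells. At 2 h the median of dim genes lies above 0 and that of bright genes below it. Id3, with a log2 difference of -2.78 at 2 h and -2.26 at 42 h, is among the lowest members in both panels.

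After 42 h several target genes of the pathway were lower than in fresh cells. Id1 fell 4.48-fold, Id3 4.81-fold and Id2 at least 3.4-fold. The TGF-beta-induced matrix gene Tgfbi fell at least 3.66-fold, the inhibitory genes Smad6 and Smad7 2.82-fold and 2.36-fold, and the latent TGF-beta binding protein Ltbp4 6.61-fold. Of the 49 genes 15 fell and 5 rose, where 20.8% of all genes fell and 29.7% rose. Gdf10 and Grem1, called lower, and Gdf11, called higher, were at background in both groups. The count of 5 was 8 with array weights or with only these 2 groups in the fit, and 3 with dim genes filtered out. At least 2-fold lower were 10 members (20.4%) and 1 was higher (2.04%), against 5.39% and 4.12% of all genes. The median log2 difference of the members was -0.01, against 0.05 over all genes. The 10 genes were Acvrl1, Id1, Id2, Id3, Ltbp4, Smad6, Smad7, Tgfb1, Tgfbi and Tgfbr3, and the 1 gene was Inhbb. Hepatocyte markers fell in 18 of 18 genes, with a list mean of 6.29 to 6.43 at 42 h against 8.03 to 9.50 in LSEC_0h and 8 genes at background at 42 h. Macrophage markers fell in 7 of 9, at 6.51 to 6.89 against 7.98 to 10.62, with none at background. Their part in the members' changes was not tested.

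Both culture times were compared with the same fresh arrays, and the direct comparison of 42 h with 2 h shows which members moved between them. Tgfbi fell at least 4.76-fold, Id1 3.43-fold, Ltbp4 3.3-fold and Id2 at least 3.03-fold. These were the only 4 members at least 2-fold apart (8.16%), all lower at 42 h, where 5.61% of all genes were lower and 8.79% higher by that measure. By calls alone 29 members were lower at 42 h and 5 higher, against 38.9% and 33.1% of all genes. Smad4, Smad2, Acvr2b, Bmp3 and Tgfb1i1 were the 5. Among the 29, Acvr1c, Bmp15, Gdf10, Grem1, Inhbc and Smad9 were at background at both times. Dim members made up 17 of the 29, and 2973 of 5351 dim genes of the whole table were lower, with a median of -0.18. Of the 25 members above the median level, 12 were lower and 3 higher (median -0.28). Of 5667 such genes in the whole table, 1317 were lower and 2865 higher (median 0.28). With arrays quantile-normalized, 20 members were lower and 7 higher, and of all 11018 genes 3029 were lower and 3477 higher. The median log2 difference of the members was -0.22, against -0.08 over all genes. Hepatocyte markers were lower at 42 h in 16 of 18, with a list mean of 6.29 to 6.43 at 42 h against 6.89 to 9.97 at 2 h. Mesenchymal markers were lower in 10 of 16, at 6.17 to 6.63 against 6.79 to 7.62, and T, NK and B cell markers in 8 of 12, at 6.28 to 6.31 against 7.39 to 7.87. Dcn, Lum, Lrat and Mfap4, and Cd3e, Cd3g, Gzma, Klrd1 and Cd79b, were at background at 42 h and above it at 2 h. The Actb gap also differed between these times without overlap, at 1.81 to 1.89 in LSEC_42h against 1.63 to 1.69 in LSEC_2h. The part of these cells and of RNA quality was not tested.

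**Figure D2:**
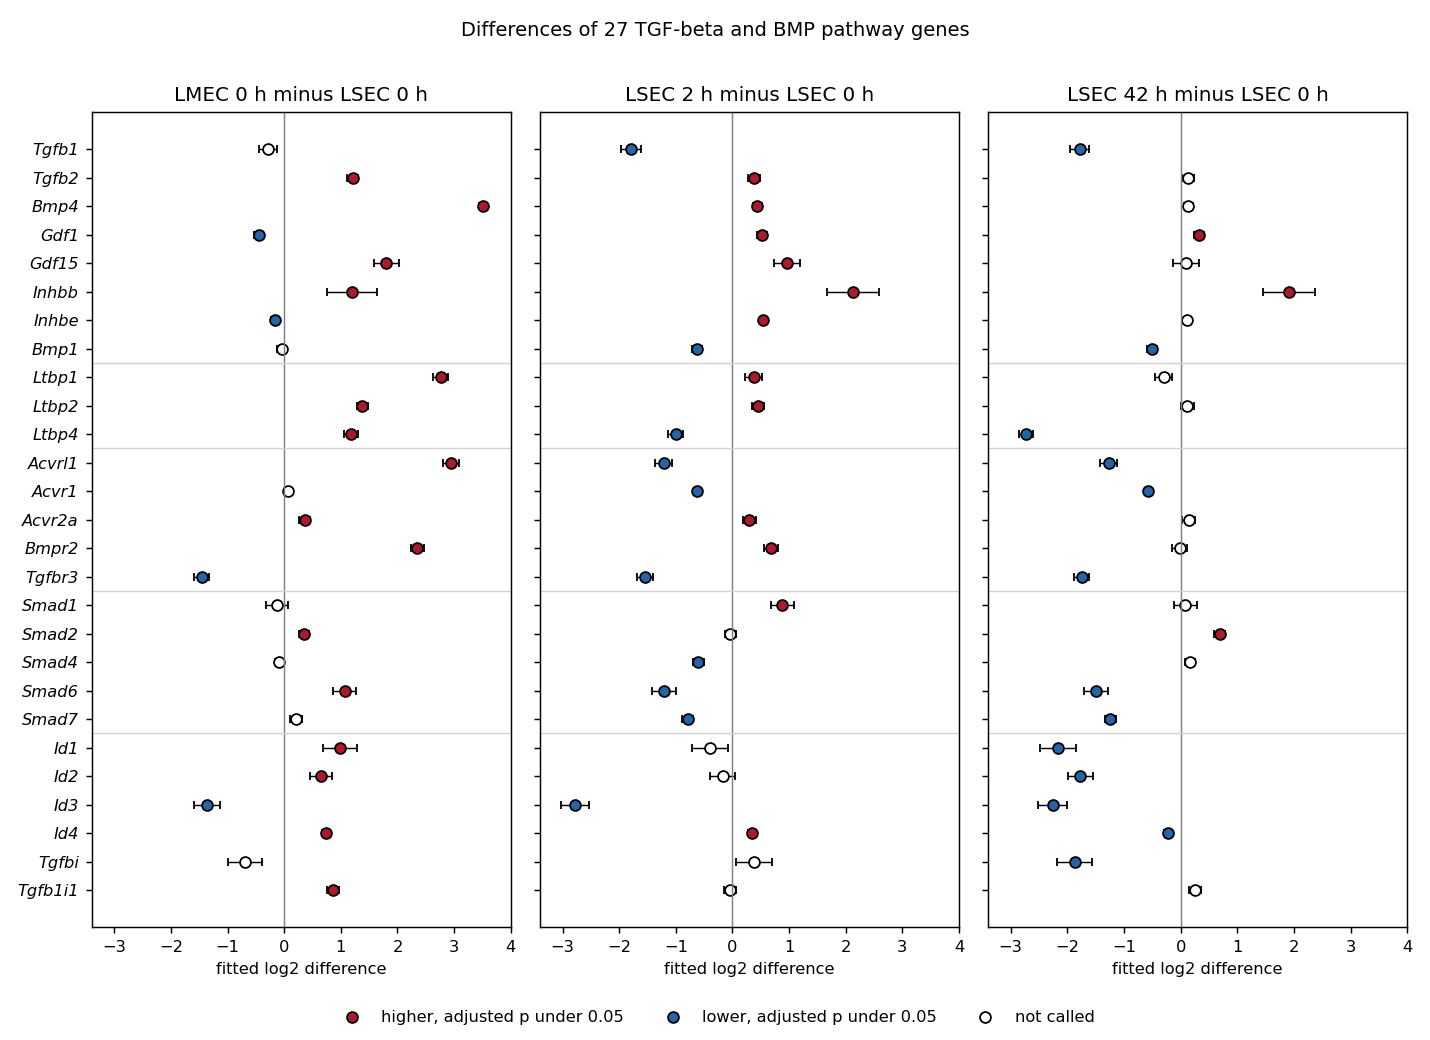
Fitted log2 differences with their standard errors (bars) of the 27 members given array by array, in the order ligands and the protease Bmp1, latent binding proteins, receptors, SMADs, and targets, for fresh lung minus fresh liver cells and for 2 h and 42 h of culture minus fresh liver cells. Filled points were called at an adjusted p under 0.05. Acvrl1, Smad6 and Ltbp4 lie right of 0 in the first panel and left of it in the other panels, and Id3 and Tgfbr3 lie left of 0 in all 3.

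Among the TGF-beta ligands, Tgfb1 and Tgfb2 differed between different groups. Tgfb1 (Entrez gene 59086), the isoform best known from blood platelets and scarring liver, read 8.82, 9.68, 8.88, 8.97 and 9.38 in the LMEC_0h arrays, 9.60, 9.30, 9.14, 9.78 and 9.30 in the LSEC_0h arrays, 7.74, 7.58, 7.65 and 7.58 in the LSEC_2h arrays, and 7.40, 7.63, 7.92 and 7.64 in the LSEC_42h arrays. The organs overlapped, with LMEC_0h arrays 19 and 22 highest in their group, and every cultured array lay below every fresh array. Tgfb1 fell 3.45-fold at 2 h (log2 difference -1.79, SE 0.17, limma adjusted p = 6.12e-08) and was 3.42-fold lower than in fresh cells at 42 h (log2 difference -1.78, SE 0.17, limma adjusted p = 1.39e-07). The organ difference was not called (log2 difference -0.28, SE 0.16, limma adjusted p = 0.158). Tgfb2, an isoform made by many stromal and epithelial cells, read 7.87, 7.88, 8.11, 7.61 and 7.55 in the LMEC_0h arrays, 6.59, 6.49, 6.66, 6.65 and 6.60 in the LSEC_0h arrays, 7.07, 6.97, 6.92 and 6.96 in the LSEC_2h arrays, and 6.79, 6.54, 6.56 and 7.03 in the LSEC_42h arrays. All LMEC_0h arrays lay above all LSEC_0h arrays, and Tgfb2 was 2.31-fold higher in LMEC_0h (log2 difference 1.21, SE 0.10, limma adjusted p = 2.05e-08). Its rise at 2 h was 1.3-fold (log2 difference 0.38, SE 0.11, limma adjusted p = 0.004). Tgfb3, the remaining isoform, averaged 6.92 ± 0.34 in LMEC_0h against 6.30 ± 0.22 in LSEC_0h (SD, n = 5 each; higher, limma adjusted p = 0.0118), with overlapping groups.

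Of the BMP ligands measured, Bmp4 alone reached a group mean above the median of all genes. Bmp4 (Entrez gene 25296), a morphogen of lung and blood vessel development, read 9.49, 9.81, 9.34, 9.67 and 9.71 in the LMEC_0h arrays, 6.05, 6.09, 6.03, 6.18 and 6.11 in the LSEC_0h arrays, 6.58, 6.42, 6.55 and 6.58 in the LSEC_2h arrays, and 6.22, 6.16, 6.30 and 6.21 in the LSEC_42h arrays. It was at background in LSEC_0h and LSEC_42h and at least 11.4-fold higher in LMEC_0h (log2 difference 3.51, SE 0.07, limma adjusted p = 1.44e-16). At 2 h it rose by a log2 difference of 0.44 (SE 0.08, limma adjusted p = 8.07e-05). Bmp3, an inhibitory BMP known from bone, gave 6.48, 6.82, 6.56 and 6.65 at 42 h, the highest values of the 18 arrays, against 5.82, 5.84, 5.78, 5.86 and 5.73 in LSEC_0h, where it was at background. It rose at least 1.77-fold (log2 difference 0.82, SE 0.08, limma adjusted p = 1.19e-07). Bmp5, Bmp7 and Bmp8a had group means between 6.01 and 6.60.

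The activin subunit Inhbb and the divergent members Gdf15 and Gdf1 were above background throughout. Inhbb (Entrez gene 25196) encodes the beta B subunit of activin B and inhibin B, and read 8.88, 8.14, 8.15, 8.19 and 8.01 in the LMEC_0h arrays, 6.75, 6.42, 6.90, 8.08 and 7.22 in the LSEC_0h arrays, 8.73, 9.95, 8.69 and 9.43 in the LSEC_2h arrays, and 8.24, 7.68, 9.42 and 10.58 in the LSEC_42h arrays. It had the widest spread of the 49 members, with a SD of 1.29 (n = 4) at 42 h. LSEC_0h array 16 stood above its group, 2 h and fresh arrays did not overlap, and the 42 h arrays overlapped with the fresh arrays through array 2. Inhbb rose 4.38-fold at 2 h (log2 difference 2.13, SE 0.46, limma adjusted p = 0.000498) and 3.75-fold at 42 h (log2 difference 1.91, SE 0.46, limma adjusted p = 0.00222). It was 2.29-fold higher in LMEC_0h (log2 difference 1.20, SE 0.44, limma adjusted p = 0.0311), a call lost without LMEC_0h array 18, without LSEC_0h array 13, 14 or 15, without LMEC_0h arrays 19 and 22, and without LMEC_0h array 20 and LSEC_0h array 15 (limma adjusted p = 0.0547 to 0.0809). Inhbe, an inhibin subunit expressed mainly in liver, read 6.83, 6.96, 6.82, 6.91 and 7.06 in the LMEC_0h arrays, 7.04, 7.10, 7.12, 7.18 and 6.99 in the LSEC_0h arrays, 7.68, 7.57, 7.65 and 7.62 in the LSEC_2h arrays, and 7.33, 7.13, 7.15 and 7.20 in the LSEC_42h arrays. The 2 h arrays were highest and did not overlap with the others, a rise of 1.46-fold (log2 difference 0.54, SE 0.06, limma adjusted p = 6.64e-07). The organs overlapped, and Inhbe was 1.12-fold lower in LMEC_0h (log2 difference -0.17, SE 0.06, limma adjusted p = 0.0241), a call lost without LMEC_0h array 18 or 20 or LSEC_0h array 15 or 16 (limma adjusted p = 0.0512 to 0.0655). Inhba, the subunit of activin A, averaged 7.01 ± 0.10 (SD, n = 4) at 2 h against 6.50 ± 0.06 (SD, n = 5) in LSEC_0h (log2 difference 0.50, SE 0.09, limma adjusted p = 4.8e-05).

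Gdf15, a cytokine induced by cell stress, read 8.0, 9.02, 7.76, 8.06 and 8.86 in the LMEC_0h arrays, 6.51, 6.58, 6.45, 6.51 and 6.64 in the LSEC_0h arrays, 7.35, 7.81, 7.66 and 7.17 in the LSEC_2h arrays, and 7.21, 6.46, 6.27 and 6.59 in the LSEC_42h arrays. LMEC_0h arrays 19 and 22 were highest and no LMEC_0h array overlapped with LSEC_0h. It was 3.49-fold higher in LMEC_0h (log2 difference 1.80, SE 0.22, limma adjusted p = 2.35e-06), with a log2 difference of 1.40 without those 2 arrays (limma adjusted p = 8.42e-06). At 2 h it rose 1.94-fold (log2 difference 0.96, SE 0.23, limma adjusted p = 0.00128), and at 42 h only array 1 lay above all LSEC_0h arrays. Gdf1, a partner of Nodal in the mouse embryo whose mouse transcript also carries Cers1, read 7.51, 7.84, 7.54, 7.90 and 7.83 in the LMEC_0h arrays, 8.21, 8.19, 8.04, 8.25 and 8.19 in the LSEC_0h arrays, 8.81, 8.69, 8.68 and 8.63 in the LSEC_2h arrays, and 8.63, 8.43, 8.40 and 8.56 in the LSEC_42h arrays. Every cultured array lay above every LSEC_0h array and every LMEC_0h array below every LSEC_0h array, with folds of 1.44-fold up at 2 h, 1.25-fold up at 42 h and 1.37-fold lower in LMEC_0h (limma adjusted p = 4.25e-05, 0.00495 and 0.000207). Bmp1 is no family ligand but a metalloprotease that trims procollagens, and read 7.87, 8.11, 7.83, 7.72 and 7.78 in the LMEC_0h arrays, 7.88, 7.85, 7.87, 8.02 and 7.88 in the LSEC_0h arrays, 7.37, 7.20, 7.36 and 7.19 in the LSEC_2h arrays, and 7.27, 7.27, 7.54 and 7.54 in the LSEC_42h arrays. It fell 1.54-fold at 2 h and 1.41-fold at 42 h, with no overlap of cultured and fresh LSEC arrays (limma adjusted p = 5.39e-06 and 0.00011), and the organ difference was not called (limma adjusted p = 0.708).

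All 3 latent TGF-beta binding proteins measured were higher in lung cells. Ltbp1 (Entrez gene 59107), which ties latent TGF-beta to the matrix, read 9.57, 9.77, 9.18, 9.48 and 9.57 in the LMEC_0h arrays, 6.75, 6.83, 6.84, 6.75 and 6.63 in the LSEC_0h arrays, 7.34, 6.71, 7.41 and 7.11 in the LSEC_2h arrays, and 6.65, 6.16, 6.23 and 6.80 in the LSEC_42h arrays. The LMEC_0h arrays lay far above all others, 6.76-fold above LSEC_0h (log2 difference 2.76, SE 0.14, limma adjusted p = 2.34e-11). Its difference at 2 h was called (log2 difference 0.38, SE 0.15, limma adjusted p = 0.0294), but not without LSEC_2h array 4 or 6 or LSEC_0h array 17 (limma adjusted p = 0.093, 0.105 and 0.0617), nor with quantile normalization or array weights (limma adjusted p = 0.0527 and 0.237). Ltbp2, a matrix protein of this family that does not bind latent TGF-beta, read 8.60, 8.43, 8.03, 7.97 and 8.37 in the LMEC_0h arrays, 6.88, 6.91, 6.85, 7.0 and 6.87 in the LSEC_0h arrays, 7.36, 7.30, 7.29 and 7.45 in the LSEC_2h arrays, and 7.06, 6.89, 6.97 and 7.16 in the LSEC_42h arrays. It was 2.6-fold higher in LMEC_0h, with no overlap (log2 difference 1.38, SE 0.10, limma adjusted p = 2.73e-09). Array 18, with the highest mesenchymal marker mean of LMEC_0h (9.39), also had the highest Ltbp2, and array 21, with the lowest marker mean (8.27), the lowest Ltbp2; their part was not tested.

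Ltbp4 took another course in culture. Ltbp4 (Entrez gene 292734), which binds latent TGF-beta and helps to assemble elastic fibres, read 11.44, 11.29, 10.80, 11.11 and 10.88 in the LMEC_0h arrays, 10.05, 9.86, 9.73, 10.06 and 9.91 in the LSEC_0h arrays, 9.04, 9.06, 9.03 and 8.56 in the LSEC_2h arrays, and 7.18, 7.08, 7.34 and 7.18 in the LSEC_42h arrays. The 4 groups did not overlap with each other: LMEC_0h was highest, then LSEC_0h, LSEC_2h and LSEC_42h. It was 2.27-fold higher in LMEC_0h (log2 difference 1.18, SE 0.13, limma adjusted p = 4.39e-07), fell 2-fold at 2 h (log2 difference -1.0, SE 0.13, limma adjusted p = 3.44e-06) and was 6.61-fold below fresh cells at 42 h (log2 difference -2.73, SE 0.13, limma adjusted p = 7.1e-11). Between 2 h and 42 h it fell 3.3-fold (log2 difference -1.72, SE 0.14, limma adjusted p = 1.57e-08), a comparison in which all arrays carried the bacterial controls.

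**Figure D3:**
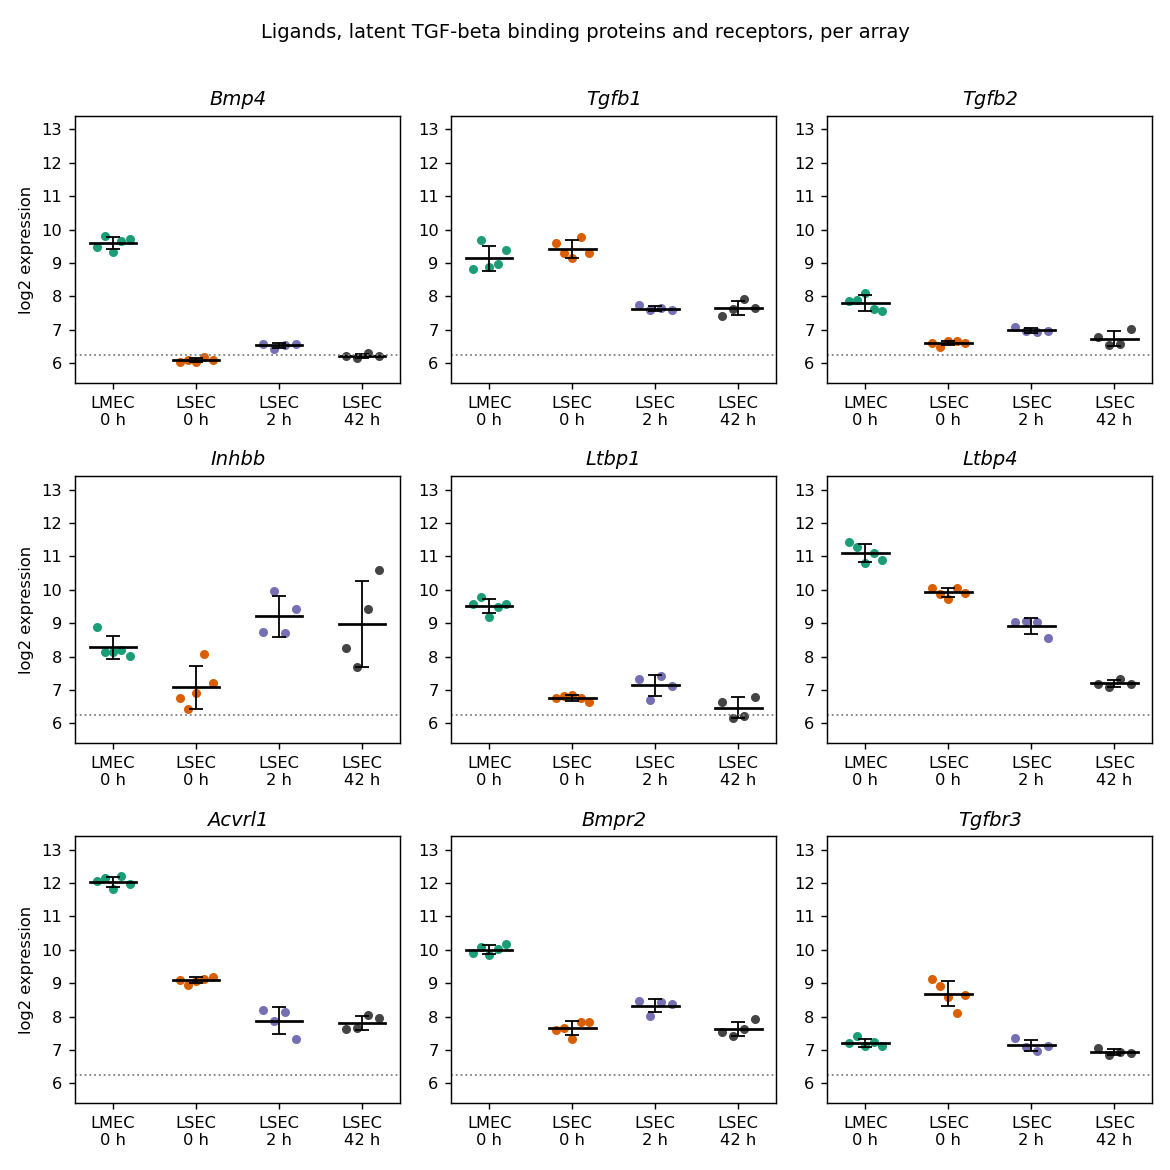
Log2 expression (vertical axis) in each array (points), with the mean and SD of each group (bars), for 4 ligand genes, Ltbp1 and Ltbp4, and the receptor genes Acvrl1, Bmpr2 and Tgfbr3; the dotted line is the background level of 6.26. Bmp4, Ltbp1, Acvrl1 and Bmpr2 stand highest in LMEC, Tgfbr3 in fresh LSEC, and the 42 h arrays spread widest for Inhbb.

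The receptor genes of the endothelial BMP branch set the organs apart. Acvrl1 (Entrez gene 25237), the type I receptor ALK1, read 12.05, 12.14, 11.82, 12.22 and 11.96 in the LMEC_0h arrays, 9.09, 8.96, 9.08, 9.14 and 9.19 in the LSEC_0h arrays, 8.20, 7.87, 8.14 and 7.32 in the LSEC_2h arrays, and 7.63, 7.66, 8.05 and 7.95 in the LSEC_42h arrays. It was 7.72-fold higher in LMEC_0h (log2 difference 2.95, SE 0.14, limma adjusted p = 7.48e-12). In culture it fell 2.32-fold at 2 h (log2 difference -1.21, SE 0.15, limma adjusted p = 1.37e-06) and was 2.41-fold below fresh cells at 42 h (log2 difference -1.27, SE 0.15, limma adjusted p = 1.6e-06), and the culture times overlapped. Bmpr2 (Entrez gene 140590), a type II receptor whose loss causes a heritable form of pulmonary hypertension in humans, read 9.91, 10.09, 9.84, 10.02 and 10.18 in the LMEC_0h arrays, 7.59, 7.65, 7.34, 7.83 and 7.84 in the LSEC_0h arrays, 8.48, 8.03, 8.44 and 8.38 in the LSEC_2h arrays, and 7.53, 7.42, 7.63 and 7.93 in the LSEC_42h arrays. All LMEC_0h arrays lay above all LSEC arrays, 5.11-fold above LSEC_0h (log2 difference 2.35, SE 0.12, limma adjusted p = 1.74e-11). It rose 1.6-fold at 2 h (log2 difference 0.68, SE 0.13, limma adjusted p = 0.000104) and at 42 h overlapped with fresh cells (limma adjusted p = 0.891).

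Acvr1, the type I BMP receptor ALK2, read 7.42, 7.24, 7.30, 7.23 and 7.15 in the LMEC_0h arrays, 7.16, 7.14, 7.13, 7.32 and 7.23 in the LSEC_0h arrays, 6.60, 6.62, 6.48 and 6.59 in the LSEC_2h arrays, and 6.56, 6.62, 6.66 and 6.65 in the LSEC_42h arrays. It fell 1.54-fold at 2 h and 1.49-fold at 42 h with no overlap of cultured and fresh LSEC arrays (limma adjusted p = 7.9e-08 and 4.35e-07), and the organs overlapped. Acvr2a, a type II receptor for activins and BMPs, read 8.10, 7.83, 7.70, 8.23 and 7.87 in the LMEC_0h arrays, 7.56, 7.62, 7.55, 7.57 and 7.62 in the LSEC_0h arrays, 7.87, 8.09, 7.67 and 7.88 in the LSEC_2h arrays, and 7.95, 7.60, 7.63 and 7.72 in the LSEC_42h arrays. It was 1.28-fold higher in LMEC_0h and 1.23-fold higher at 2 h (limma adjusted p = 0.0061 and 0.018). Without LSEC_2h array 5 the rise at 2 h was not called (limma adjusted p = 0.0781). Its paralog Acvr2b averaged 6.54 ± 0.13 (SD, n = 4) at 2 h against 6.98 ± 0.03 (SD, n = 5) in LSEC_0h (log2 difference -0.43, SE 0.07, limma adjusted p = 1.79e-05). Tgfbr1, the type I TGF-beta receptor ALK5, averaged 7.71 ± 0.19 in LMEC_0h against 7.28 ± 0.18 in LSEC_0h (SD, n = 5 each; higher, limma adjusted p = 0.00496), with overlap. Bmpr1a, the type I BMP receptor ALK3, averaged 7.03 ± 0.28 in LMEC_0h against 6.61 ± 0.10 in LSEC_0h (SD, n = 5 each; higher, limma adjusted p = 0.00398), also with overlap.

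Tgfbr3 (Entrez gene 29610), the coreceptor betaglycan that presents TGF-beta2 and binds inhibin, ran opposite to Acvrl1 between the organs. It read 7.21, 7.41, 7.13, 7.24 and 7.11 in the LMEC_0h arrays, 9.12, 8.92, 8.59, 8.12 and 8.66 in the LSEC_0h arrays, 7.36, 7.09, 6.98 and 7.13 in the LSEC_2h arrays, and 7.05, 6.86, 6.93 and 6.90 in the LSEC_42h arrays. The LSEC_0h arrays were highest and overlapped with no other group, with array 16 lowest among them. Tgfbr3 was 2.75-fold lower in LMEC_0h (log2 difference -1.46, SE 0.14, limma adjusted p = 8.01e-08), 2.91-fold lower at 2 h (log2 difference -1.54, SE 0.14, limma adjusted p = 6.58e-08) and 3.36-fold lower at 42 h (log2 difference -1.75, SE 0.14, limma adjusted p = 3.23e-08). Among the 11018 genes with a symbol, none was labelled Eng, the endoglin gene named by the rule. Nor was any labelled Tgfbr2, Bmp6, Bmp10 or Gdf2, the gene of BMP9.

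The signal-carrying SMADs differed by less than 2-fold in all 4 comparisons. Smad1, a signal carrier of the BMP branch, read 8.37, 9.26, 8.44, 8.77 and 9.45 in the LMEC_0h arrays, 8.94, 8.99, 8.96, 9.08 and 8.99 in the LSEC_0h arrays, 10.0, 9.89, 9.71 and 9.88 in the LSEC_2h arrays, and 8.49, 9.07, 9.42 and 9.31 in the LSEC_42h arrays. The 2 h arrays were highest, 1.84-fold above fresh cells (log2 difference 0.88, SE 0.20, limma adjusted p = 0.000924), and at 42 h it was 1.74-fold below 2 h (log2 difference -0.80, SE 0.22, limma adjusted p = 0.00314). LMEC_0h spread widely around LSEC_0h, with arrays 19 and 22 highest, and the organ difference was not called (limma adjusted p = 0.598). Smad2, of the TGF-beta and activin branch, read 8.96, 8.81, 8.81, 8.82 and 8.67 in the LMEC_0h arrays, 8.45, 8.41, 8.36, 8.50 and 8.57 in the LSEC_0h arrays, 8.24, 8.63, 8.19 and 8.62 in the LSEC_2h arrays, and 9.10, 9.31, 9.16 and 9.02 in the LSEC_42h arrays. It was 1.61-fold higher at 42 h than in fresh cells (log2 difference 0.69, SE 0.10, limma adjusted p = 1.58e-05) and 1.28-fold higher in LMEC_0h (log2 difference 0.35, SE 0.09, limma adjusted p = 0.00436). Smad4, the partner shared by both branches, read 8.89, 8.85, 8.72, 8.96 and 8.65 in the LMEC_0h arrays, 8.87, 8.92, 8.93, 8.91 and 8.92 in the LSEC_0h arrays, 8.18, 8.53, 8.18 and 8.35 in the LSEC_2h arrays, and 9.16, 8.92, 9.10 and 9.11 in the LSEC_42h arrays. It fell 1.51-fold at 2 h (log2 difference -0.60, SE 0.09, limma adjusted p = 7.58e-06) and stood 1.7-fold above 2 h at 42 h (log2 difference 0.76, SE 0.09, limma adjusted p = 1.09e-06), while 42 h and fresh cells overlapped. Smad5 averaged 6.61 ± 0.11 in LMEC_0h against 6.83 ± 0.06 in LSEC_0h (SD, n = 5 each; limma adjusted p = 0.0039), and Smad3 and Smad9 were at background in all 4 groups.

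The inhibitory SMADs, which are induced by the pathway and block it, fell in culture. Smad6 (Entrez gene 367100), which mostly restrains BMP signals, read 10.40, 9.68, 9.61, 10.24 and 9.10 in the LMEC_0h arrays, 8.83, 8.99, 8.60, 8.33 and 8.93 in the LSEC_0h arrays, 7.65, 7.50, 7.70 and 7.24 in the LSEC_2h arrays, and 7.41, 7.22, 7.15 and 7.18 in the LSEC_42h arrays. LMEC_0h was highest, then LSEC_0h, then both culture times, with no overlap between LMEC_0h, LSEC_0h and culture. It was 2.1-fold higher in LMEC_0h (log2 difference 1.07, SE 0.20, limma adjusted p = 0.000198), 2.32-fold lower at 2 h (log2 difference -1.21, SE 0.21, limma adjusted p = 4.89e-05) and 2.82-fold lower at 42 h (log2 difference -1.50, SE 0.21, limma adjusted p = 1.09e-05). Smad7 (Entrez gene 81516), which restrains both branches, read 8.16, 7.64, 7.89, 7.95 and 7.55 in the LMEC_0h arrays, 7.65, 7.60, 7.60, 7.51 and 7.75 in the LSEC_0h arrays, 6.77, 6.91, 6.74 and 6.89 in the LSEC_2h arrays, and 6.58, 6.24, 6.33 and 6.40 in the LSEC_42h arrays. The organs overlapped, with no call (limma adjusted p = 0.0811), and every cultured array lay below every fresh array. Smad7 fell 1.73-fold at 2 h (log2 difference -0.79, SE 0.10, limma adjusted p = 2.85e-06), was 2.36-fold below fresh cells at 42 h (log2 difference -1.24, SE 0.10, limma adjusted p = 3.79e-08) and fell 1.36-fold between 2 h and 42 h (log2 difference -0.44, SE 0.11, limma adjusted p = 0.00159).

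The ID genes encode helix-loop-helix proteins that bind no DNA themselves and block the factors they pair with. They are direct targets of BMP signals through SMAD1 and SMAD5. Id1 (Entrez gene 25261), the best known endothelial target of ALK1, read 12.21, 10.56, 11.76, 11.62 and 10.29 in the LMEC_0h arrays, 10.11, 10.16, 10.34, 10.38 and 10.57 in the LSEC_0h arrays, 9.87, 9.94, 10.01 and 9.87 in the LSEC_2h arrays, and 8.96, 8.19, 7.72 and 7.71 in the LSEC_42h arrays. LMEC_0h arrays 18, 20 and 21 were highest, arrays 19 and 22 lay within the LSEC_0h range, and the 42 h arrays lay below all others, array 1 being highest among them. Id1 was 4.48-fold lower at 42 h than in fresh cells (log2 difference -2.16, SE 0.32, limma adjusted p = 2.3e-05) and 3.43-fold lower than at 2 h (log2 difference -1.78, SE 0.34, limma adjusted p = 0.000173). The difference of 2 h from fresh cells was not called (log2 difference -0.39, SE 0.32, limma adjusted p = 0.283), although all 2 h arrays lay below all LSEC_0h arrays. Id1 was 1.97-fold higher in LMEC_0h (log2 difference 0.98, SE 0.30, limma adjusted p = 0.0128). Leaving out arrays 19 and 22, the lowest of LMEC_0h for Id1, necessarily widened this (log2 difference 1.55), which is no support for the difference. The log2 difference was 0.87 without LMEC_0h array 20, LSEC_0h array 15 and LSEC_2h array 6, where the call was lost (limma adjusted p = 0.0613).

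Id2 read 8.53, 8.21, 9.12, 8.18 and 8.29 in the LMEC_0h arrays, 7.91, 7.75, 8.32, 7.54 and 7.55 in the LSEC_0h arrays, 7.73, 7.68, 8.16 and 7.02 in the LSEC_2h arrays, and 6.22, 6.03, 5.97 and 5.97 in the LSEC_42h arrays. LSEC_0h overlapped with LMEC_0h and with LSEC_2h, all LMEC_0h arrays lay just above all LSEC_2h arrays, and the 42 h arrays were at background, at least 3.4-fold below fresh cells (log2 difference -1.77, SE 0.22, limma adjusted p = 2.85e-06) and at least 3.03-fold below 2 h (log2 difference -1.60, SE 0.23, limma adjusted p = 9.14e-06). In LMEC_0h it was 1.57-fold higher (log2 difference 0.65, SE 0.20, limma adjusted p = 0.014), with array 20 highest. Id3 (Entrez gene 25585) followed another order and read 12.05, 10.90, 11.61, 11.60 and 10.52 in the LMEC_0h arrays, 12.73, 12.79, 12.71, 12.49 and 12.76 in the LSEC_0h arrays, 9.36, 10.14, 10.20 and 9.99 in the LSEC_2h arrays, and 10.62, 10.34, 10.10 and 10.66 in the LSEC_42h arrays. Fresh liver cells were highest with a narrow spread, and no other array reached them. Id3 fell 6.85-fold at 2 h (log2 difference -2.78, SE 0.25, limma adjusted p = 3.39e-08), was 4.81-fold below fresh cells at 42 h (log2 difference -2.26, SE 0.25, limma adjusted p = 7.2e-07), and the culture times were not called apart (limma adjusted p = 0.084). It was 2.57-fold lower in LMEC_0h (log2 difference -1.36, SE 0.23, limma adjusted p = 9.88e-05), with arrays 19 and 22 lowest there and a log2 difference of -0.94 without them (limma adjusted p = 0.000542). Id4 read 7.50, 7.36, 7.22, 7.11 and 7.05 in the LMEC_0h arrays, 6.49, 6.48, 6.45, 6.58 and 6.57 in the LSEC_0h arrays, 6.81, 6.92, 6.88 and 6.86 in the LSEC_2h arrays, and 6.32, 6.29, 6.27 and 6.33 in the LSEC_42h arrays. It was 1.66-fold higher in LMEC_0h (log2 difference 0.73, SE 0.07, limma adjusted p = 7.56e-08), and its differences in culture, a log2 difference of 0.35 at 2 h and -0.22 at 42 h (limma adjusted p = 0.000299 and 0.019), were in opposite directions. Both culture differences lay between the 10th and 90th percentiles of all genes near its expression level.

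**Figure D4:**
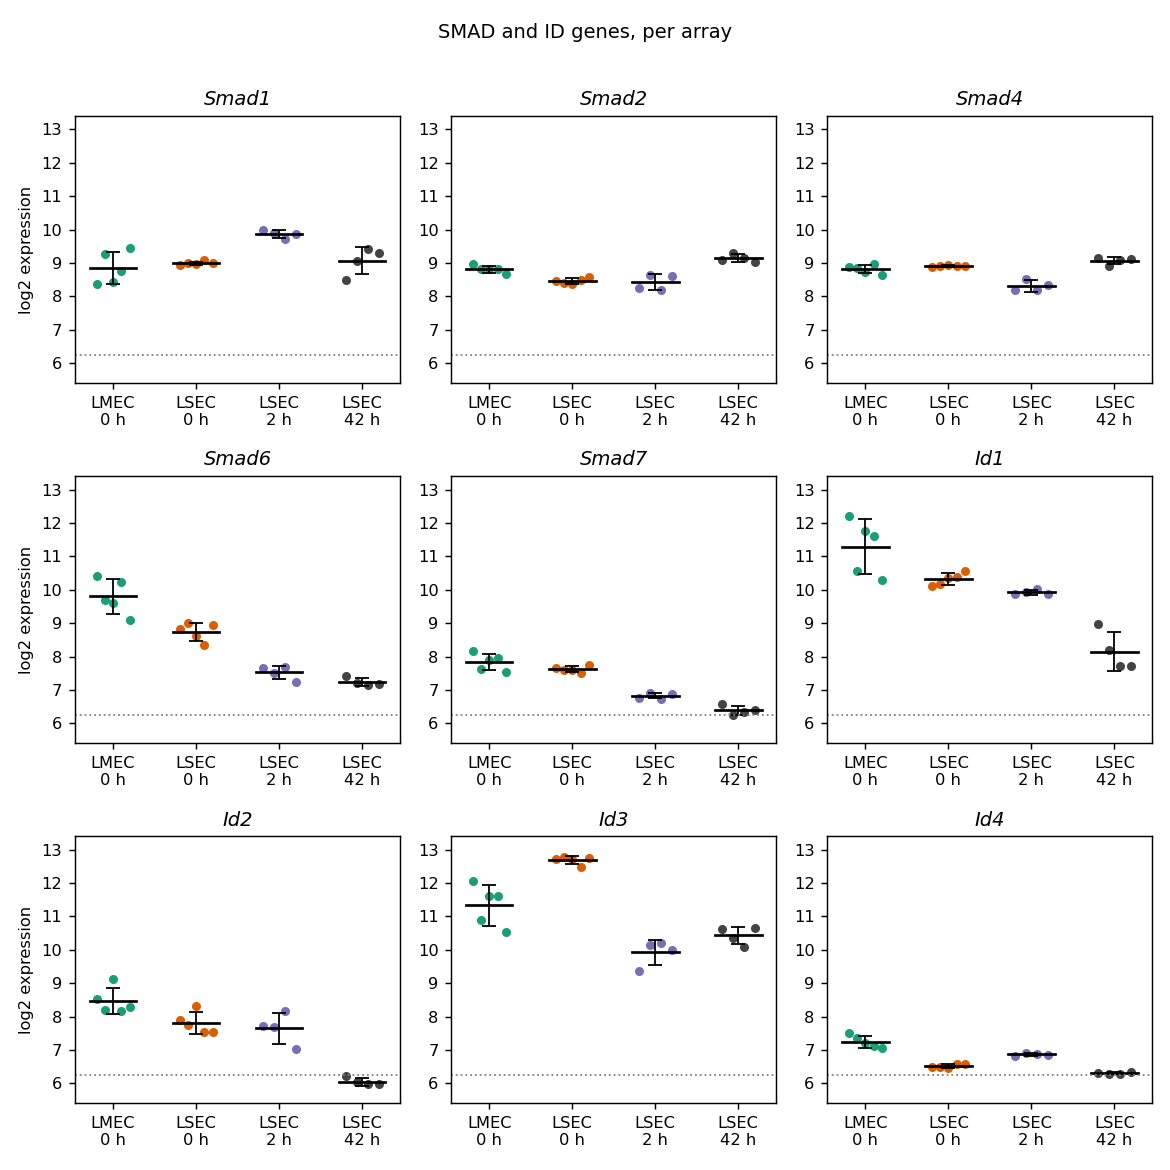
Log2 expression (vertical axis) in each array (points), with the mean and SD of each group (bars), for 5 SMAD and 4 ID genes; the dotted line is the background level of 6.26. Smad6 and Smad7 step down in culture, Id1 and Id2 are lowest at 42 h, and Id3 is highest in fresh LSEC, where the 5 arrays lie between 12.49 and 12.79.

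The promoters of Id1, Id2, Id3 and Smad7, targets that were each lower at 42 h than in fresh cells, are shown. Their courses differed at 2 h, when Id3 and Smad7 had fallen and Id1 and Id2 were not called. Each runs from 250 bases before to 50 bases after the gene's start, 5′ to 3′ on the gene's strand, from RefSeq on GRCr8, with capitals marking matches on either strand to GGCGCC, a GC-rich SMAD1 and SMAD5 motif, to GTCTAG, part of the palindromic SMAD3 and SMAD4 site, or to CAGACA, a SMAD box with its flanking base.
Id1 at chr3:161671314-161671613 (plus strand): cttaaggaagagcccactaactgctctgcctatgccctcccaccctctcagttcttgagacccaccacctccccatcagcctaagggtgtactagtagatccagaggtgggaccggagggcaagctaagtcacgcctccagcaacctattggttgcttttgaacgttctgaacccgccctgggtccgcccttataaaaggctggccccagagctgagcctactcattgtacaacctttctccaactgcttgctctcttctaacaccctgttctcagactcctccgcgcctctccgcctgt
Id2 at chr6:47470946-47471245 (minus strand): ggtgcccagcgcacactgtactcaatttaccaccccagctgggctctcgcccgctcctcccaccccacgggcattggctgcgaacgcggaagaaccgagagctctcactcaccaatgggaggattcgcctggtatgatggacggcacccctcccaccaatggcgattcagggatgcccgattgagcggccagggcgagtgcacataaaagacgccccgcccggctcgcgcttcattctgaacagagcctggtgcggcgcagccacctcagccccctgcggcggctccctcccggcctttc
Id3 at chr5:153656041-153656340 (plus strand): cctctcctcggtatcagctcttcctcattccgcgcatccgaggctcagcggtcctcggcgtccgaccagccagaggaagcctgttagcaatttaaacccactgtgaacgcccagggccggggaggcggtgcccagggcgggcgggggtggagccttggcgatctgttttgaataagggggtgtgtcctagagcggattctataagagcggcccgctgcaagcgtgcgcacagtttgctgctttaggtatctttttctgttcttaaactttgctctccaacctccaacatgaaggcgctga
Smad7 at chr18:71263258-71263557 (plus strand): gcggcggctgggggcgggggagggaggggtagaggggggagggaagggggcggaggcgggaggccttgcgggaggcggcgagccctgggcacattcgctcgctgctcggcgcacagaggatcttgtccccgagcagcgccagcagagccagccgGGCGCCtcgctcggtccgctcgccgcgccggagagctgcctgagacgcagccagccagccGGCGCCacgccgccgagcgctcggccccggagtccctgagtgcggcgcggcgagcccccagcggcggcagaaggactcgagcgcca
Smad7 holds 2 matches to GGCGCC, and the 3 ID windows hold none of these letters, which says nothing of sites elsewhere. RefSeq windows were at hand for 43 of the 49 members. GGCGCC was in 14 of them (32.6%), against 11.8% of all 27457 promoters, CAGACA in 7 (16.3%) against 20.8%, and GTCTAG in 3 (6.98%) against 8.65%. Those with GGCGCC included Acvr2a, Id4, Inhbb, Ltbp1, Smad2, Tgfbi and Tgfbr3, genes that rose and genes that fell in culture. GGCGCC reads the same on both strands, and GTCTAG and the opposite strand of CAGACA share the 4 letters GTCT.

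Tgfbi (Entrez gene 116487), a secreted matrix protein named for its induction by TGF-beta, read 7.25, 7.05, 7.88, 6.95 and 7.38 in the LMEC_0h arrays, 7.58, 7.82, 7.79, 8.45 and 8.29 in the LSEC_0h arrays, 8.62, 7.94, 9.55 and 7.37 in the LSEC_2h arrays, and 6.08, 6.14, 6.02 and 6.23 in the LSEC_42h arrays. Fresh and 2 h cells of the liver overlapped, 2 h arrays spread widely with array 6 highest, and the 42 h arrays were at background. It was at least 3.66-fold lower at 42 h than in fresh cells (log2 difference -1.87, SE 0.31, limma adjusted p = 7.93e-05) and at least 4.76-fold lower than at 2 h (log2 difference -2.25, SE 0.33, limma adjusted p = 1.24e-05). Array 6 also had the highest mesenchymal and hepatocyte marker means of the 2 h group (7.62 and 9.97), whose part was not tested. Tgfb1i1, the focal adhesion adaptor Hic-5, read 8.99, 8.39, 8.59, 8.47 and 8.35 in the LMEC_0h arrays, 7.80, 7.59, 7.64, 7.71 and 7.73 in the LSEC_0h arrays, 7.48, 7.67, 7.71 and 7.76 in the LSEC_2h arrays, and 7.95, 8.09, 7.77 and 7.99 in the LSEC_42h arrays. It was 1.82-fold higher in LMEC_0h with no overlap (log2 difference 0.86, SE 0.10, limma adjusted p = 2.14e-06). Its difference between 42 h and 2 h (log2 difference 0.29, SE 0.12, limma adjusted p = 0.0333) was not called with quantile normalization or array weights (limma adjusted p = 0.6 and 0.101) or without any 1 of LSEC_42h arrays 1, 2 and 12 and LSEC_2h arrays 4 and 5 (limma adjusted p = 0.0522 to 0.104).

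Of the other 22 members, Acvr1c, Bmp15, Gdf10, Grem1, Inhbc, Smad3 and Smad9 were at background in all 4 groups. Grem1, a secreted BMP antagonist, had group means of 5.72 in LMEC_0h, 6.14 in LSEC_0h, 6.14 in LSEC_2h and 5.89 in LSEC_42h. Bmper, a secreted regulator of BMPs in vessels, averaged 6.44 ± 0.24 in LMEC_0h against 5.88 ± 0.13 in LSEC_0h (SD, n = 5 each), which is at background, and was at least 1.47-fold higher (log2 difference 0.56, SE 0.14, limma adjusted p = 0.00349). The remaining dim genes, Gdf6, Gdf9, Gdf11 and Inha, had group means between 6.02 and 6.55.

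From lists of other pathway genes, 92 of 125 were measured. Of these, 44 were higher in LMEC_0h and 21 lower, 34 rose and 22 fell at 2 h (25 and 25 with arrays quantile-normalized), and 14 rose and 27 fell at 42 h, to be read against the shares of all genes given above. Genes known to respond to TGF-beta were higher in LMEC_0h in 12 of 15 and lower in 1, with a median log2 difference of 1.65 against -0.04 over all genes. They were led by Tagln, a smooth muscle actin-binding protein, at 9.72 ± 0.98 in LMEC_0h against 6.11 ± 0.05 in LSEC_0h, by Vegfa, the vascular growth factor, at 10.01 ± 0.46 against 6.44 ± 0.07, and by the matrix protein Postn at 9.16 ± 0.24 against 5.82 ± 0.05 (SD, n = 5 each). Tagln and Postn, like Col1a1 and Lox of the same list, are also among the mesenchymal markers that differed between these groups. Genes known to respond to BMPs were higher in 9 of 15 and lower in 3, with a median log2 difference of 0.71. That list does not set induced genes apart from repressed ones. For both lists the shares over all genes were 19.8% higher in LMEC_0h and 27.7% lower. Tmem100, a membrane protein downstream of ALK1 in the mouse, stood at 12.13 ± 0.33 in LMEC_0h against a background level of 5.86 ± 0.04 in LSEC_0h, at least 76.8-fold higher, and the nitric oxide synthase Nos3 was 5.26-fold lower, with 8.20 ± 0.36 in LMEC_0h and 10.59 ± 0.23 in LSEC_0h (n = 5 each, SD; limma adjusted p = 1.91e-17 and 3.67e-08). Tmem100 is also one of the markers of lung and continuous endothelium used above. Dab2, an endocytic adaptor that also binds SMADs, was 6.73-fold lower in LMEC_0h.

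Of 12 genes that handle latent TGF-beta, 6 were higher and 4 lower in LMEC_0h, where 19.8% of all genes were higher and 27.7% lower. At 2 h 3 rose and 5 fell, where 41.4% of all genes rose and 32.7% fell. At 42 h 1 rose and 6 fell, where 29.7% of all genes rose and 20.8% fell. Emilin1, an elastic fibre glycoprotein that holds back TGF-beta maturation in the mouse, gave 7.82 ± 0.26 in LMEC_0h (SD, n = 5), 11.29 ± 0.20 in LSEC_0h (SD, n = 5), 8.80 ± 0.45 in LSEC_2h (SD, n = 4) and 8.02 ± 0.40 in LSEC_42h (SD, n = 4). It was 11.1-fold lower in LMEC_0h, 5.63-fold lower at 2 h and 9.68-fold lower at 42 h (limma adjusted p = 6.97e-11, 1.5e-08 and 9.71e-10). Nrros, which tethers latent TGF-beta1 on macrophages and microglia in the mouse, was 3.26-fold lower in LMEC_0h, 4.58-fold lower at 2 h and 1.65-fold lower at 42 h than in fresh cells, and 2.77-fold higher at 42 h than at 2 h (limma adjusted p = 6.19e-08, 5.84e-09, 0.00135 and 1.1e-06).

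At 2 h the cell cycle inhibitor Cdkn1a rose 4.21-fold, the transcription factor Runx1 3.97-fold, the SMAD corepressor Tgif1 2.82-fold and the protease Mmp9 at least 2.36-fold, and the TGF-beta-inducible factor Klf10 fell 3.74-fold and Nos3 4-fold (limma adjusted p at most 0.000158 for these). At 42 h the matrix protein Ccn2 was 14.2-fold above fresh cells, the chemokine receptor Cxcr4 9.66-fold, the peptide hormone Apln 7.03-fold and Tgif1 3.21-fold, and the connexin Gja4 5.66-fold, the transcription factors Klf4 5.58-fold and Junb 5.03-fold below (limma adjusted p at most 9.59e-05 for these). Ccn2 gave 12.59 ± 0.26 (SD, n = 4) at 42 h against 8.76 ± 0.66 (SD, n = 5) in LSEC_0h. Of the 15 genes known to respond to TGF-beta, 2 were higher at 42 h than in fresh cells and 3 lower, with a median log2 difference of 0.02. Of the 15 known to respond to BMPs, 2 were higher and 6 lower, with a median of 0.0. Over all genes 29.7% rose and 20.8% fell. Between 2 h and 42 h Ccn2 rose 6.12-fold, Cxcr4 4.82-fold, Apln 10.6-fold and Fkbp1a, a binder of type I receptors, 3-fold. Klf4 fell 9.08-fold, Junb 8.47-fold, Cdkn1a 4.64-fold and Bambi, a decoy receptor, 3.82-fold (limma adjusted p at most 0.000503 for these).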

How the data were processed

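Biotin-labelled cRNA was hybridised to Affymetrix rat arrays, per the labels' protocols. What the authors deposited is 1 log2 value per probe set and array, a unit read from the range of the values. How they corrected background, normalized and summarised is not given in the sources used here. No further scaling was applied, and the numbers entered the tests as deposited, with no pseudocount and no filter on low values. Of 11484 probe sets, 57 were array controls and 409 had no gene symbol, which left 11018 genes, each with 1 probe set. All 49 members matched RefSeq (GRCr8) by gene ID with the same symbol. No 2 arrays held identical values. The labels gave the 4 groups.

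All 18 arrays entered 1 linear model fitted with limma 3.58.1 under R 4.3.3, each group having its own mean and the prior variance following intensity, and 4 comparisons were tested, two-sided, with Benjamini-Hochberg adjustment over all genes. The procedure was tested on simulated data. Summaries and plots used Python 3.11.15, pandas 2.3.3 and matplotlib 3.10.9. Members were given array by array where called without overlap of groups and with a higher mean above 7.16, and the other pathway genes named were the 4 highest and 4 lowest such genes of each comparison. The members and lists were chosen with earlier results of these data known. The fit was repeated after quantile normalization, on the 6796 genes (27 members) that exceeded their array's median in 4 or more arrays, on only the 2 groups compared, without the trend, with array weights, and with arrays left out. Array data hold no counts, so the number of arrays limits the precision.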

Additional observations from a re-analysis of the deposited data

Results flagged for a closer look

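In 104 groups of 4 or 5 arrays of the genes given array by array, 6 held 1 array far from its group, where chance gives about 1 in 20. Inhbb gave 8.88 in LMEC_0h array 18, against 8.01 to 8.19 in the other 4 arrays. Id3 gave 12.49 in LSEC_0h array 16, against 12.71 to 12.79 in the others. Ltbp4 gave 8.56 in LSEC_2h array 7, against 9.03 to 9.06. Bmp1 gave 8.02 in LSEC_0h array 16, against 7.85 to 7.88. Gdf1 gave 8.04 in LSEC_0h array 15, against 8.19 to 8.25. Bmp4 gave 6.42 in LSEC_2h array 5, against 6.55 to 6.58. Id4 was called higher at 2 h and lower at 42 h than in fresh sinusoidal cells, and the culture times themselves differed by a log2 difference of -0.57 (limma adjusted p = 4.55e-06). Its mean level was 6.75, and all genes in the bins at 6.66 and 6.8 had median log2 differences of 0.26 and 0.19 at 2 h.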

How the results depend on the processing

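Of 74 called differences of the genes given array by array, 67 kept their direction and call under every alternative run, and none was reversed. The other 7 kept their direction and lost the call under at least 1 alternative: Id1, Inhbb and Inhbe between the organs, Acvr2a and Ltbp1 at 2 h, and Tgfb1i1 and Bmp4 between 42 h and 2 h (Bmp4 with quantile normalization, limma adjusted p = 0.184). With dim genes filtered out, which leaves 27 members to count, 4 members were lower in LMEC_0h, 12 rose at 2 h, 3 rose at 42 h, and between 42 h and 2 h 3 were higher and 12 lower; of the other pathway genes 22 rose at 2 h. With quantile normalization 15 members rose at 2 h, and 53.6% of called members were higher, against 70.3% as deposited. Over all genes that share moved too, to 48.0% against 55.9%. Between 42 h and 2 h the split was 25.9% against 14.7% for members, and 53.4% against 46.0% over all genes. For other pathway genes at 2 h 25 of 50 calls were higher, against 60.7%. With only the 2 groups in the fit, 8 members and 22 other pathway genes rose at 42 h, and with array weights 8 members did; the cause was not tested. Leaving out 1 array at a time, in LMEC_0h over LSEC_0h 21 to 23 members were higher and 7 to 9 lower, and 42 to 45 and 21 to 22 other pathway genes. At 2 h 20 to 26 members rose and 11 fell, and 26 to 33 and 20 to 22 other genes. At 42 h 4 to 5 rose and 14 to 16 fell, and 12 to 15 and 26 to 28. Between 42 h and 2 h, 4 to 5 were higher and 24 to 31 lower, and 15 to 16 and 31 to 38. No paired analysis was possible because the labels do not say which arrays share an animal or a cell isolation.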
